A study of Mus musculus with 4 samples.

Results

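Embryonic globin genes and transcription factors of blood formation were followed in 4 Illumina TruSeq libraries of mouse R1 embryonic stem cells (ESCs), 2 of the Undiff state and 2 of the Day4 state. The 10 genes are Hba-x, Hba-a1, Hba-a2, Hbb-bh1, Hbb-y, Gata1, Gata2, Tal1, Klf1 and Lmo2, of 24421 genes in the count files. They were chosen by symbol, after Hba-x had been seen among the largest rises from Undiff to Day4. Their differences between the states are therefore given as a description, with no p-value.

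The study compared the transcriptome of ESCs before and after differentiation with retinoic acid (RA). All 4 libraries come from the same R1 line, with no genetic change. The methods of the study describe Undiff as ESCs kept with leukaemia inhibitory factor, whereas the labels describe all samples as embryoid bodies, the floating aggregates that ESCs form. Day4 samples were embryoid bodies grown for 4 days without leukaemia inhibitory factor and then for 4 days with RA, at 2 µM in the text on the series and 2 mM in the sample labels. Leukaemia inhibitory factor and time in culture thus changed together with RA, and their parts in a difference cannot be told apart. No sample of that age without RA was analysed here. The replicates were grown and treated separately. The pluripotency gene Pou5f1 had 30092 and 26731 counts in Undiff and 136 and 170 in Day4. Total counts on genes were 36674893 and 32099074 in Undiff and 34956489 and 47730944 in Day4. The floor of 3 counts stood at 0.0629 to 0.0935 CPM, which is counts scaled to 1000000 counts on genes, and covers counting error only.

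Haemoglobin is built from alpha-like and beta-like chains. In the mouse, the first red cells of the yolk sac use the zeta chain of Hba-x and the beta-like chains of Hbb-y and Hbb-bh1, and later red cells use the adult alpha chains of Hba-a1 and Hba-a2 with adult beta chains. Tal1, Lmo2 and a GATA factor bind DNA in 1 complex in blood cells, with Gata2 in progenitors and endothelium and Gata1 in red cells and megakaryocytes, while Klf1 binds CACCC motifs and activates red cell genes. Gata2, Tal1 and Lmo2 are also used outside blood, in endothelium and in neurons.

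The promoters of Hba-x and Hbb-y are shown because these genes had the highest counts among the globins in Day4. The sequences are from RefSeq on GRCm38.p6, read in the direction of the gene, and their capitals mark the motifs searched on both strands in the 250 bases before the RefSeq start. For the GATA motif the letters AGATAA were searched, with the variant AGATAG counted alike. The forms that begin with another base, TGATAA first and then the less usual TGATAG, were counted with them. The other motifs were the CACCC box, the CCAAT box of many promoters, the TATAAA of the TATA box, and the E-box in the form CAGATG bound by Tal1 dimers or in the form CAGCTG. The longest run of bases common to both promoters, GGCTCCACCC, contains a CACCC match and is marked too. The first window of Hba-x lies on chr11:32276488-32276517 (plus strand), positions -112 to -83 from the start, and the second on chr11:32276560-32276589, positions -40 to -11. Both lie inside the gene as GENCODE vM21 places it, from 32276400, because that span begins upstream of the RefSeq start. The Hbb-y region lies on chr7:103853218-103853417 (minus strand), positions -210 to -11.
Hba-x, GATA match and common run: gctcTGATAAcaGGCTCCACCCtgcaagcc
Hba-x, TATAAA match: tgaccatgtgtaTATAAAggagacactggg
Hbb-y, upstream region: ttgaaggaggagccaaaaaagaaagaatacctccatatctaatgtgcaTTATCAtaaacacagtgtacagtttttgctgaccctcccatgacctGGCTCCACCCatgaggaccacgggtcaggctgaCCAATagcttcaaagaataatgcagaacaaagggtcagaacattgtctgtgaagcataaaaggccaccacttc

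In Hba-x the common run began at position -100, with a TGATAA match at -108 to -103. In Hbb-y it began at -116, and the GATA match stood farther upstream, at -162 to -157, on the other strand. The run was found in 214 of 32851 promoters of the same length (0.651%). It was picked because Hba-x and Hbb-y share it, and it is longer than the motifs searched. Its share therefore cannot be set against theirs, and whether such a run is unusual was not tested. A GATA match was found in 26.5%, CACCC in 52.0%, CCAAT in 33.8%, TATAAA in 12.4% and an E-box in 25.5% of the promoters. Promoters of 8 of the 10 genes were in the table, and those of Hbb-bh1 and Lmo2 were not. Those of Hba-a1 and Hba-a2, which had no count, held GATA, CACCC and CCAAT matches as well. The table holds more than 1 promoter for Gata2, of which the first held none of the 5 motifs and the second held 1 CACCC and 2 CCAAT matches. It also holds more than 1 for Tal1, of which the first held 1 GATA and 1 CACCC match and the second none.

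Of the 10 genes, 6 were higher in Day4 and 0 lower by the thresholds for differentially expressed genes (DEGs), 2 did not pass them and 2 were listed at 0 in all libraries. DEGs were required to have an adjusted p of 0.05 or less in edgeR, a log2 fold change of 1 or more in either direction, and 5 or more normalized counts on average. Of the 19891 genes tested, 22.2% were DEGs higher in Day4 and 20.6% were DEGs lower in Day4. Only 16472 of the 19891 reached the minimum mean, and the others could not be DEGs. The 6 genes were Hba-x, Hbb-bh1, Hbb-y, Gata2, Tal1 and Lmo2. Because the rise of Hba-x in this same comparison led to the choice, the count describes the genes and is not a test of them, and nothing is read from it against these shares.

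**Figure D1:**
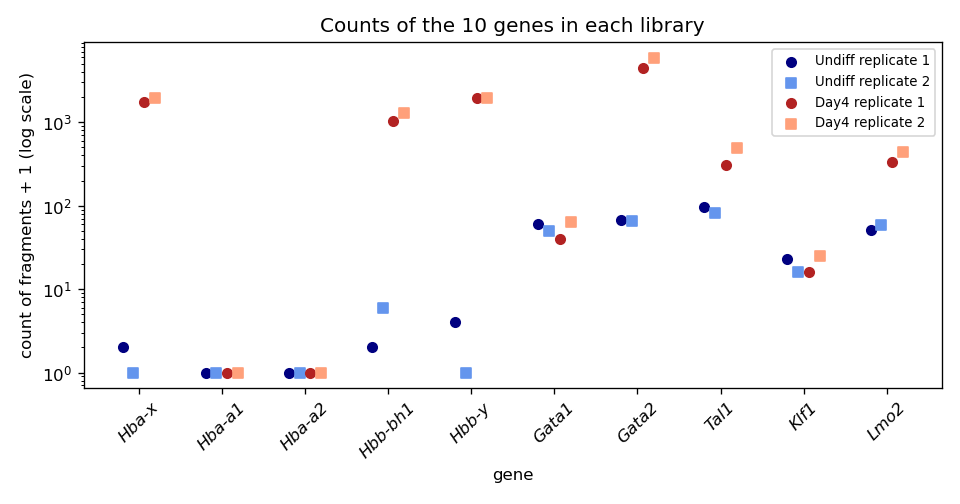
Counts of fragments plus 1 (log scale) of the 10 genes in the 4 libraries, 1 point per library. Hba-x, Hbb-bh1 and Hbb-y are at 5 counts or fewer in Undiff and above 1000 in Day4, whereas the points of Gata1 and Klf1 lie close together.

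Hba-x, the embryonic alpha-like chain, had 1 and 0 counts in the Undiff libraries and 1728 and 1937 in the Day4 libraries. The gene lies on chr11:32276400-32278116 of GRCm38 (GENCODE vM21, plus strand). It was at the floor in Undiff and far above it in both Day4 libraries. The summed counts, scaled by effective library size, differed by a ratio of 2912, with an exact 95% interval of 522 to 115041 that covers counting error only. In bulk samples, more cells of a type and more RNA per cell cannot be told apart.

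Hbb-y, the embryonic epsilon-like chain on chr7:103851749-103853216 (minus strand), had 3 and 0 counts in Undiff and 1932 and 1962 in Day4. Its ratio was 1031 (exact 95% interval 353 to 5003). Hbb-bh1, the other embryonic beta-like chain, on chr7:103841637-103843164 (minus strand), had 1 and 5 counts in Undiff and 1025 and 1281 in Day4. Its ratio was 305 (140 to 833). For all 3 globins the groups did not overlap, but the share of all genes without overlap was not counted. With 2 libraries per state, such a separation can also occur by chance. The intervals are wide because the Undiff counts are few. The log2 fold changes of the fit were 11.23 for Hba-x, 9.93 for Hbb-y and 8.21 for Hbb-bh1. These fitted values depend on the prior count where Undiff is near 0. Without Undiff replicate 1 they were 13.72 for Hba-x, 13.81 for Hbb-y and 7.39 for Hbb-bh1, and without Undiff replicate 2 they were 10.46, 9.07 and 9.79.

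The adult alpha globins Hba-a1 and Hba-a2 were listed at 0 in all 4 libraries. Of the windows of 1 read length in their transcripts, 337 of 599 in Hba-a1 and 337 of 454 in Hba-a2 were found in another globin transcript, and such reads are not counted where only unique alignments are used. The remaining 262 and 117 windows were not shared, and they gave no count either. No window of Hba-x, Hbb-bh1 or Hbb-y was shared with another of the 10 globin transcripts compared. The adult beta globin symbols Hbb-b1, Hbb-b2, Hbb-bs and Hbb-bt were also listed at 0 throughout, with 330 of 528 windows of Hbb-bs and 330 of 603 of Hbb-bt shared. How the annotation used by the authors resolves these overlapping names was not tested.

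The theta globins of the alpha cluster moved the other way. Hbq1b had 40 and 28 counts in Undiff and 3 and 4 in Day4 (log2 fold change -3.56 ± 0.45 SE, adjusted p = 7.31e-06 in edgeR). Hbq1a had 9 and 15 counts in Undiff and 0 and 2 in Day4, a ratio of 0.0662 (exact 95% interval 0.00758 to 0.267, adjusted p = 0.00119 in edgeR), and was no longer a DEG without Undiff replicate 2. The paralogs share 122 windows, and reads common to both are not counted where only unique alignments are used. Among globins of other cells, Cygb, found in fibroblast-like cells, rose from 28 and 29 counts to 1902 and 2478 (5.93 ± 0.11, adjusted p = 2.69e-14 in edgeR). The neuronal Ngb fell from 59 and 45 counts to 4 and 9 (-3.30 ± 0.36, adjusted p = 1.57e-06 in edgeR) and the muscle globin Mb, whose exons overlap those of another counted gene, from 36 and 39 to 6 and 14 (-2.22 ± 0.36, adjusted p = 8.44e-05 in edgeR).

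The 3 embryonic globins together made up 134 and 109 CPM in the Day4 libraries, against 0.136 and 0.156 CPM in Undiff. Divided by the length of all exons, Hbb-y held 44.6% ± 2.7 (SD, n = 2) of the 3 globins in Day4, Hba-x 28.3% ± 0.29 and Hbb-bh1 27.1% ± 2.4. The exons of Hba-x include alternative first exons, and with the shortest protein-coding transcript of each gene, a length chosen after seeing the data, the shares were 39.0% for Hba-x, 38.0% for Hbb-y and 23.1% for Hbb-bh1. The order of Hba-x and Hbb-y thus depended on the length used. Hbb-bh1 was the lowest under both, although its share with all exons was 25.5% and 28.8% in the Day4 libraries against 28.1% and 28.5% for Hba-x, so that their values overlap. The beta-like chains together held 71.7% with all exons and 61.0% with the shortest transcripts.

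**Figure D2:**
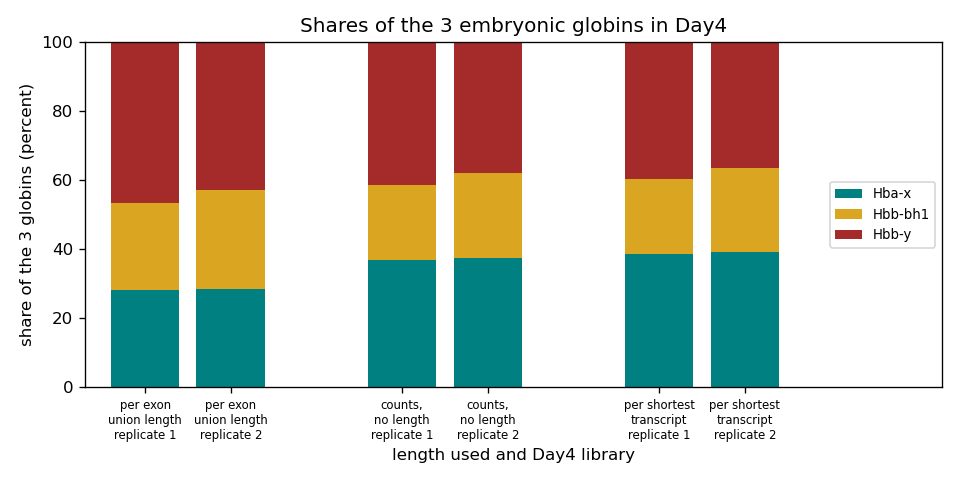
Stacked shares (percent) of Hba-x, Hbb-bh1 and Hbb-y among the 3 globins in each Day4 library, with counts divided by the exon union length, not divided, or divided by the shortest protein-coding transcript. The share of Hba-x is 28.3% in the first pair of bars and 37.1% and 39.0% in the others.

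Among the transcription factors, Gata2 had 66 and 65 counts in Undiff and 4453 and 5877 in Day4. The gene lies on chr6:88193891-88207032 (plus strand). Its ratio was 62.6 (exact 95% interval 52.7 to 75.0), and both Day4 libraries lay far above both Undiff libraries. Gata2 was the only factor of the 5 above 5 CPM per kilobase of exon in Day4, at 34.6 and 33.4.

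Lmo2, the LIM-only protein that joins Tal1 to GATA factors, had 50 and 58 counts in Undiff and 330 and 442 in Day4, a ratio of 5.68 (4.64 to 7.01). It lies on chr2:103957986-103981878 (plus strand). Tal1, the basic helix-loop-helix partner in that complex, on chr4:115056426-115071755 (plus strand), had 95 and 81 counts in Undiff and 306 and 493 in Day4, a ratio of 3.61 (3.06 to 4.27). Neither gene overlapped between the groups, which with 2 libraries per state can also occur by chance. The share of all genes without overlap was not counted, so nothing is read from this separation. The log2 fold changes were 5.97 for Gata2, 2.50 for Lmo2 and 1.84 for Tal1.

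Gata1 and Klf1, the factors most closely tied to red cells, did not pass the thresholds. Gata1, on chrX:7959260-7978071 (minus strand), had 60 and 49 counts in Undiff and 39 and 62 in Day4. Its normalized counts were 62.5 and 58.6 in Undiff and 40.7 and 47.6 in Day4, and its log2 fold change was -0.44 (-0.60 to -0.35 with each library left out). Klf1, on chr8:84901928-84905291 (plus strand), had 22 and 15 counts in Undiff and 15 and 24 in Day4, with a ratio of 0.837 (0.520 to 1.35). The counts of both genes overlapped between the states. After normalization those of Gata1 did not, with both Day4 values below both Undiff values. How many of all genes separate in this way was not counted.

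Per length, as CPM per kilobase of exon, the order in Day4 was Hbb-y (87.3 and 64.9), Hba-x (52.7 and 43.3), Hbb-bh1 (47.8 and 43.8), Gata2 (34.6 and 33.4), Lmo2 (4.50 and 4.42), Tal1 (2.00 and 2.36), Gata1 (0.458 and 0.533) and Klf1 (0.280 and 0.329). Hba-x and Hbb-bh1 overlapped, and no other neighbours in this order did. In Undiff the factors lay close together, between 0.305 for Klf1 and 0.862 for Lmo2, and each globin was below all of them.

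**Figure D3:**
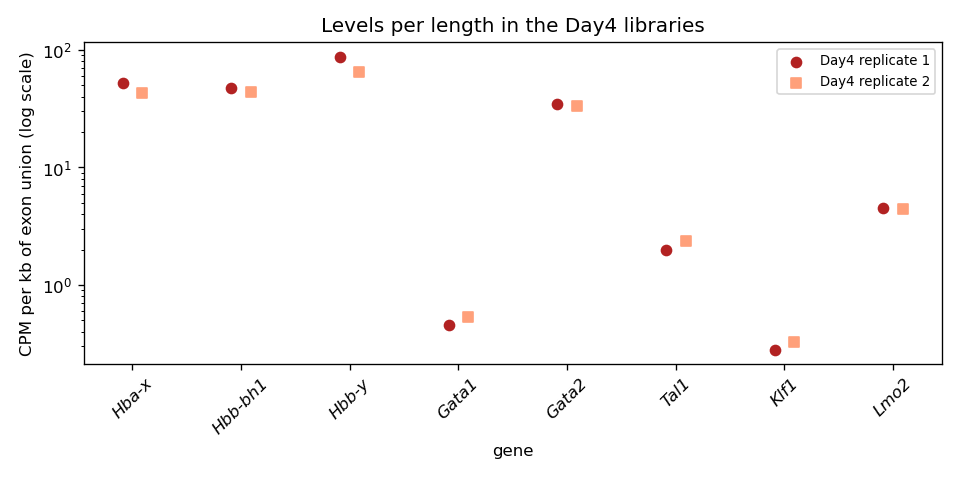
Levels of the 8 detected genes in the Day4 libraries, in CPM per kilobase of exon union (log scale), 1 point per library. The globins and Gata2 lie between 33.4 and 87.3, Lmo2 and Tal1 between 2.00 and 4.50, and Gata1 and Klf1 below 1.

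The Day4 libraries differed from each other in these genes. After normalization, replicate 1 was higher than replicate 2 by a ratio of 1.34 for Hbb-y, 1.21 for Hba-x and 1.09 for Hbb-bh1. The ratio was 1.03 for Gata2 and 1.02 for Lmo2, and below 1 for Tal1 (0.844), Gata1 (0.856) and Klf1 (0.850). Over all genes with a mean of at least 5 in Day4, 49.5% were lower in replicate 2. The count was 14 of 21 among red cell genes, 7 of 8 among megakaryocyte genes, 9 of 16 among haem genes, 8 of 17 among partners, 7 of 17 among blood progenitor genes, 7 of 16 among endothelial genes, 1 of 3 among macrophage genes, 3 of 7 among V2b interneuron genes and 4 of 7 among trophoblast genes.

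The genes of the red cell programme were measured beside the globins. Of 24 tested, 14 were DEGs higher in Day4 (58.3%) and 4 were lower (16.7%), against 22.2% and 20.6% of all genes tested. The median log2 fold change was 2.25 (2.04 with genes at the floor set to their bound), against -0.03 over all genes tested. Alas2, the first enzyme of haem synthesis in red cells, had 14 and 15 counts in Undiff and 266 and 296 in Day4 (3.94 ± 0.23, adjusted p = 1.96e-09 in edgeR), and its exons overlap those of another counted gene. The transcription factor Nfe2 rose from 28 and 21 counts to 129 and 149 (2.17 ± 0.22, adjusted p = 7.42e-07 in edgeR).

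Membrane proteins of red cells moved in both directions. The anion exchanger Slc4a1 rose from 51 and 56 counts to 207 and 246 (1.75 ± 0.17, adjusted p = 4.33e-07 in edgeR). Rhd, of the Rhesus blood group, fell from 562 and 527 counts to 6 and 18 (-5.82 ± 0.19, adjusted p = 4.45e-12 in edgeR, and -6.60 without Day4 replicate 2). The transferrin receptor Tfrc, used by all dividing cells for iron, fell by 2.07 on the log2 scale.

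Among the DEGs of the red cell list, the highest fitted values were those of the water channel Aqp1, Sox6 and Bcl11a, genes that other tissues use as well. Aqp1 had 0 and 7 counts in Undiff and 858 and 1235 in Day4, a log2 fold change of 7.84 that was 6.77 without Undiff replicate 1 and 12.95 without Undiff replicate 2. That of Sox6 was 6.03 (6.64 without Undiff replicate 1) and that of Bcl11a 4.25. Epor, the erythropoietin receptor, had 176 and 157 counts in Undiff and 355 and 448 in Day4, a log2 fold change of 0.94 ± 0.10 that missed the minimum of 1 and reached 1.01 with library totals in place of TMM factors. Gfi1b had 14 and 23 counts in Undiff and 41 and 30 in Day4 (0.61 ± 0.40, adjusted p = 0.182 in edgeR), and was a DEG without Day4 replicate 2 (1.02). Ahsp was not a symbol in the files.

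Of 16 genes of haem synthesis and breakdown, 3 were higher (18.8%), 2 were lower (12.5%) and 11 were not DEGs, with a median of 0.21. These shares are near or below the 22.2% and 20.6% of all genes tested. All 16 haem genes reached the minimum mean count, whereas only 16472 of all 19891 genes tested did. The DEGs were Alas2, Alad (1.68) and Blvra (1.01) on the higher side, and Hmox1 (-1.69) and Cpox (-1.07) on the lower side. Blvra lay at the threshold and was lost with DESeq2 (0.98), with filterByExpr (0.98) and without Day4 replicate 1 (0.97).

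Partners and relatives of the factors were mostly higher in Day4. Of 17, 13 were higher (76.5%) and 1 lower (5.9%), against 22.2% and 20.6% of all genes tested. The median log2 fold change was 3.26. Zfpm1, which binds Gata1 and Gata2, rose from 189 and 168 counts to 2185 and 2993 (3.52 ± 0.07, adjusted p = 6.37e-14 in edgeR). The GATA factors of heart and endoderm rose too, with log2 fold changes of 7.82 for Gata5 and 7.09 for Gata6, and so did Zfpm2 (6.51), their cofactor. The exons of Gata5 and Gata6 overlap those of other counted genes. Tal2, the relative of Tal1 used in the midbrain, was lower (-1.58, and -2.26 without Day4 replicate 2) and was not a DEG by DESeq2.

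Genes of other cell types that use Gata2, Tal1 or Lmo2 moved as well, and their part in the results on these factors was not tested. Of 16 endothelial genes, 10 were higher (62.5%) and 4 lower (25.0%), with a median log2 fold change of 1.93. All genes tested had shares of 22.2% and 20.6%, so the lower share is near that of all genes. Emcn, with 1 and 0 counts in Undiff and 472 and 655 in Day4, had a ratio of 895 (exact 95% interval 160 to 35397). Cdh5 (5.76) and Kdr (4.31) were the next highest DEGs, and Robo4 (-1.21), Vwf (-1.20) and Pecam1 (-1.19) the lowest. The endothelial list summed to 303 and 301 CPM in Undiff and 597 CPM in both Day4 libraries.

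Of 20 genes of blood progenitors, 12 were higher (60.0%) and 5 lower (25.0%), with a median of 1.37. Against 22.2% and 20.6% of all genes tested, the lower share is near that of all genes. Meis1 (6.72), Fli1 (5.66) and Erg (5.17) were the highest DEGs. The lowest DEGs were Spi1, with 25 and 22 counts in Undiff and 1 and 0 in Day4 (ratio 0.0169, 0.000419 to 0.0989), Etv2 (-4.90) and Myb (-3.56).

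Of 9 megakaryocyte genes, 7 were higher (77.8%) and 1 lower (11.1%), against 22.2% and 20.6% of all genes tested. The median log2 fold change was 3.04 (2.54 with genes at the floor set to their bound). Pf4, or platelet factor 4, had 1 and 0 counts in Undiff and 154 and 92 in Day4, a ratio of 195 (35 to 7751). Treml1 was at 0 in Undiff with 37 and 49 counts in Day4, at least 11.4-fold higher, and Gp9 at 0 with 28 and 21 counts, at least 6.76-fold higher. Thpo, the ligand thrombopoietin, whose exons overlap those of another counted gene, fell from 172 and 133 counts to 15 and 17. The list summed to 12.4 and 11.5 CPM in Undiff and 70.1 and 58.5 CPM in Day4.

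Of 14 macrophage genes tested, 0 were DEGs higher in Day4 by edgeR or DESeq2, 0 were higher at an unadjusted p under 0.05, and 3 were DEGs lower in Day4 (21.4%, against 20.6% of all genes tested), among them Laptm5, from 1202 and 1183 counts to 26 and 41, and Cd68, from 742 and 588 to 52 and 74. Only 7 of the 14 reached the minimum mean of 5 normalized counts. Of 11 genes of V2b interneurons, which use Gata2 and Tal1, 5 were higher (45.5%) and 3 lower (27.3%). The median log2 fold change of this list was -0.59, but 0.82 with genes at the floor set to their bound. Its sign thus depended on the treatment of the floor. Foxn4, a factor of V2b progenitors, fell from 424 and 407 to 0 and 2. Of 9 trophoblast genes, 1 was higher (11.1%) and 4 lower (44.4%), against 22.2% and 20.6% of all genes tested. Gata3, which is shared by these lists and the partners, rose from 17 and 30 counts to 300 and 396 (3.55 ± 0.20, adjusted p = 1.42e-09 in edgeR).

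**Figure D4:**
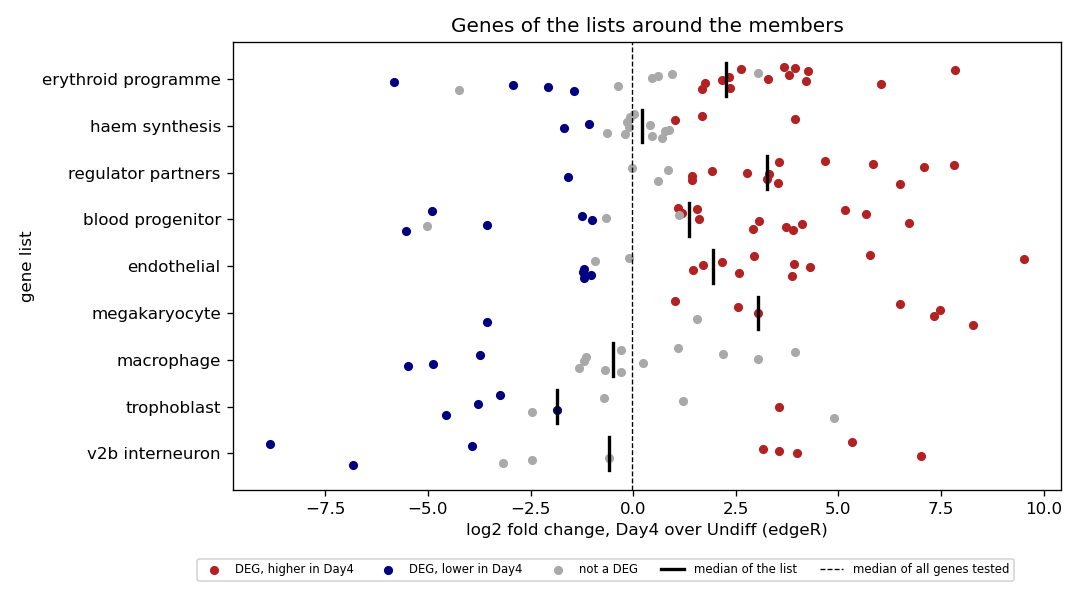
Log2 fold change (Day4 over Undiff) of each tested gene in 9 lists, with DEGs coloured by direction, the median of each list as a black bar and the median of all genes tested (-0.03) as a dashed line. The medians of the red cell (2.25), partner (3.26), megakaryocyte (3.04), endothelial (1.93), blood progenitor (1.37) and haem (0.21) lists lie to the right of it. Those of the macrophage (-0.49), V2b interneuron (-0.59) and trophoblast (-1.86) lists lie to the left. With genes at the floor set to their bound, and those at the floor in both states left out, these medians were -1.25, 0.82 and -1.29. The side of the V2b median thus depended on the treatment of the floor.

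The genes beside the globin clusters were compared with the globins. On the alpha side, Rhbdf1, Mpg and Nprl3, which lie towards lower coordinates, were not DEGs, with log2 fold changes of -0.71, -0.31 and 0.15. Nprl3 houses regulatory elements of the alpha cluster. Towards higher coordinates, Sh3pxd2b (2.84) and Ubtd2 (1.37) were higher in Day4 and Efcab9 (0.29) was not a DEG. On the beta side, all 6 nearest counted genes are olfactory receptors, and all were listed at 0.

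The genes whose levels were most like those of Hba-x over the 4 libraries, by the distance of log2(CPM + 0.1), were Hoxa2 (distance 0.52), Hbb-y (0.54), Hoxa3 (0.72), Tcf21 (0.77) and Lrrc7 (0.86). Hbb-bh1 was at rank 28, with a distance of 1.66. With 4 libraries in 2 states, many genes that are near 0 in Undiff and at a similar level in Day4 lie this close.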

How the data were processed

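Per the labels and the methods of the study, RNA was sequenced as TruSeq paired-end libraries, reads were trimmed with cutadapt, aligned to mm10 with STAR 2.4.2a and counted with htseq-count. The authors deposited raw counts per gene symbol. Labels name the kit as strand-specific. For counting genes, the methods name only the long-read Direct RNA samples as run by strand, and print no option for the TruSeq libraries. For counting exons, they give an option without regard to strand for the TruSeq libraries. The labels and the methods thus differ on this point. Long-read data were not analysed here.

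TMM factors scaled the libraries, and all 19891 genes with a count were fitted in edgeR 4.0.16 (glmQLFit, glmQLFTest; R 4.3.3), with Benjamini-Hochberg adjustment and no block. The option legacy=FALSE of glmQLFit was kept after 6 settings of this fit had been run on these data. They gave 8518 to 8529 DEGs. The legacy settings, the default of this version, gave infinite prior degrees of freedom, which leaves no allowance for uncertainty in the variance, against 10.4 with the option kept. SE is the log2 fold change divided by the square root of F. Normalized counts are scaled to the geometric mean of effective library sizes. Exact intervals used scipy. The test was checked on simulated counts.

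Alternatives were DESeq2 1.42.0, other size factors, filterByExpr, a replicate block, no fold minimum, each library left out, and other lengths. The counts showed no pairing by replicate number (correlation of deviations -0.005 over 13318 genes). Whether samples of the same number were handled together cannot be told from this. Positions are from GENCODE vM21, matched by symbol.

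The members and gene lists were chosen with earlier results of these data known. The rule for named genes took the members, the adult and theta globins, 8 defining red cell genes, up to 3 highest and 3 lowest DEGs of each list, the 3 nearest counted genes on each side of both globin clusters and the 5 genes nearest to Hba-x. Some genes that this rule took are not reported here.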

Additional observations from a re-analysis of the deposited data

How the results depend on the processing

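With 2 libraries per state, the tests measure only the spread between these samples. The number of members past the thresholds was 6 under every alternative run. The fit was settled after its results were seen: glmQLFit was run under 6 settings, which gave between 8518 and 8529 DEGs, with 6 members past the thresholds under each and the same call for every named gene. With the replicate block there were 8515 DEGs (4414 higher, 4101 lower), against 8521 without it, and the block changed no count of a list by over 1.5 times.

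Without the minimum fold change there were 14309 DEGs (7305 higher, 7004 lower), and 12 haem genes in place of 5. Of the theta globins, 1 in place of 2 passed with filterByExpr, and 1 to 2 with each library left out, the lower count without Undiff replicate 2. The log2 fold change of Efcab9 ranged from -0.15 to 1.04 with each library left out. Of 1093 values of 73 named genes under the alternatives, 1077 kept direction and call, 9 lost the call, 6 gained it and 1 changed sign.

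The globin shares moved with the length. Without division they were 37.1% for Hba-x, 23.3% for Hbb-bh1 and 39.6% for Hbb-y, and with the shortest transcript, chosen after seeing the data, 39.0%, 23.1% and 38.0%.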
